A study of Mus musculus with 32 samples.

Results

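The 37 genes described here act in the G2 phase of the cell cycle and in mitosis: they encode cyclin B and its kinase, the mitotic kinases, the spindle checkpoint, the anaphase-promoting complex with its targets, the kinetochore, the spindle and the machinery of cell division. They were picked by name from knowledge of the cell cycle, with earlier results of these data known, and make up 37 of the 55573 genes in each count table. RNA sequencing was done on mouse embryonic stem cells (ESC) and on neural cells made from them. All cells came from strain 129S5/SvEvBrd and carried a modified Smarce1, which encodes BAF57, a subunit of the BAF remodellers that move nucleosomes. In one genotype, Smarce1-MD, the protein is fused to a tag called MD. In the control genotype, Smarce1-MD(R42A), the tag carries the change R42A. From the published construct, MD is a piece of cyclin B1 that lets the anaphase-promoting complex destroy the fused protein as cells leave mitosis, and R42A alters its recognition motif. The deposited labels do not spell this out. Both genotypes therefore carry the tag, and no cells with unmodified Smarce1 enter the comparisons. The 2 genotypes are called MD and R42A below.

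ESC were grown in Knockout DMEM with 15% ES-qualified FBS, non-essential amino acids, GlutaMAX, mLIF (10 ng/ml) and beta-mercaptoethanol, in gelatin-coated dishes, and were otherwise untreated. Neural cells had been kept for 6 days in a neural induction medium that the labels spell RHA-B in one field and RHB-A in another. R42A ESC came from the lines A04, A10, A01 and A02, and MD ESC from 09, 30, 45 and 47, with 3 libraries a line and 24 in all. Neural cells came from A04, A10, 09 and 30, with 2 libraries a line and 8 in all. These codes are read here as clones, and the libraries of a clone were summed, so that n counts clones: 4 a genotype in ESC and 2 a genotype in neural cells. ESC libraries fall into a first series (A04, A10, 09, 30) and a second series (A01, A02, 45, 47) by their library numbers, and the neural libraries form a run of numbers of their own.

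As background, cyclin B1 and its partner kinase CDK1 drive entry into mitosis, and the spindle checkpoint then holds cells in metaphase until every kinetochore is attached. CDC20 and later CDH1 (the product of Fzr1) turn on the anaphase-promoting complex, a ubiquitin ligase that marks securin and cyclin B for destruction, so that separase can part the sister chromatids and the cell can divide. The messages of these genes are made mostly late in the cell cycle, under factors that bind CCAAT boxes and the cell cycle homology region (CHR) of their promoters. Embryonic stem cells cycle fast, and neural differentiation slows the cycle. In bulk RNA, fewer cells in mitosis and less of a message per cell cannot be told apart.

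Levels are given in CPM, counts scaled to a common library size, with TMM factors. Total counts ran from 38699951 to 96424439 a library, with a median of 56223048. No member was under 26.9 CPM in any clone sum, the level of Pttg1 in R42A neural clone A04. Smarce1 RNA was 109 ± 14.7 (SD, n = 4) CPM in R42A ESC and 117 ± 6.00 (SD, n = 4) in MD ESC, and 231 ± 2.23 (SD, n = 2) and 294 ± 6.65 (SD, n = 2) in the neural groups. The tag acts on protein, so these levels do not check the labels. The labelled cell types had their markers: the summed level of 8 stem cell markers was 5437 to 6608 CPM in R42A ESC and 48.6 to 54.2 in R42A neural cells, and that of 8 neural progenitor markers was 247 to 381 and 1290.2 to 1305. Of 1593 genes of chromosome 11 tested in ESC, 909 were called higher and 52 lower in MD, with a median log2 change of 0.45 against -0.04 for all genes. In neural cells the median for chromosome 11 was 0.47 and that for all genes 0.00. This bears on Aurkb, Birc5, Hmmr, Top2a and Pttg1, the 5 members on that chromosome, and the changes named for them are given with each chromosome scaled separately as well.

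Promoters of 7 members are shown because the results below turn on these genes, and because they span what the promoters hold. Each runs from 250 bases before to 50 bases after the annotated start, on the gene's strand, from RefSeq on GRCm38.p6. The Pttg1 window lies inside the gene as GENCODE places it and does not reach the GENCODE start. Capitals mark CHR matches, which are TTTGAA, its reverse complement TTCAAA and the palindrome TTCGAA. They also mark CCAAT boxes, read as CCAAT on one strand or ATTGG on the other. In ESC or neural cells Cdk1, Plk1, Bub1b and Cdc20 were lower in MD, Top2a was higher, Pttg1 changed differently in the 2 cell types, and Ccnb1 encodes cyclin B1 itself.
Ccnb1 (chr13:100786437-100786736, minus strand): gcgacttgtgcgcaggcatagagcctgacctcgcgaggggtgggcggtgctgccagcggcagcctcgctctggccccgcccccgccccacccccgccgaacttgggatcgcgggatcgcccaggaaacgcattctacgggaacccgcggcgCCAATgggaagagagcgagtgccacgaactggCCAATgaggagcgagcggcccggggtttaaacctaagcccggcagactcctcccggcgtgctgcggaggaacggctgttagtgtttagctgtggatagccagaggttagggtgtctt
Cdk1 (chr10:69352863-69353162, minus strand): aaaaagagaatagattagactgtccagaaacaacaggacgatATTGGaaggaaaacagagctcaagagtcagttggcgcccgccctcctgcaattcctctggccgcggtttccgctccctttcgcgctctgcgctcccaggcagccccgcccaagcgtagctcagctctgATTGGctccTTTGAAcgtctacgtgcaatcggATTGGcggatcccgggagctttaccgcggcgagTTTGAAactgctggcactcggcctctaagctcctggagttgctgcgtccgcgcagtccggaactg
Plk1 (chr7:122159185-122159484, plus strand): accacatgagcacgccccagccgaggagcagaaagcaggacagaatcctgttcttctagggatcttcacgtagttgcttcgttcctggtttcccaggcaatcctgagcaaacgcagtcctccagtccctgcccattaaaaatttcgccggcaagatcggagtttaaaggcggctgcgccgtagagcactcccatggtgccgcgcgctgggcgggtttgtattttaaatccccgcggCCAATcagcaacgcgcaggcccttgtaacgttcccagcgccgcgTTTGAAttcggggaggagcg
Bub1b (chr2:118597961-118598260, plus strand): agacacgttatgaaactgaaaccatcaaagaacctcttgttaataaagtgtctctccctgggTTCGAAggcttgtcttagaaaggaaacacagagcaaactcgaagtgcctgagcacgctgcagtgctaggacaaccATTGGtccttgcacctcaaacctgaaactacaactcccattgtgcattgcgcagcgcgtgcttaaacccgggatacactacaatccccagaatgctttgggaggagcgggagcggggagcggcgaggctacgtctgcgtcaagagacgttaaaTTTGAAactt
Cdc20 (chr4:118437294-118437593, minus strand): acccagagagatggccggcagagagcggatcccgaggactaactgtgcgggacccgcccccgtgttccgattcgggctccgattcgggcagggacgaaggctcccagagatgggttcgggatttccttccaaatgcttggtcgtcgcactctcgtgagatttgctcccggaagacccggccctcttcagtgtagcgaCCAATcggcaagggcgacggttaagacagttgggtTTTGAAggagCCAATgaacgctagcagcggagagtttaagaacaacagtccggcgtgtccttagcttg
Top2a (chr11:99024140-99024439, minus strand): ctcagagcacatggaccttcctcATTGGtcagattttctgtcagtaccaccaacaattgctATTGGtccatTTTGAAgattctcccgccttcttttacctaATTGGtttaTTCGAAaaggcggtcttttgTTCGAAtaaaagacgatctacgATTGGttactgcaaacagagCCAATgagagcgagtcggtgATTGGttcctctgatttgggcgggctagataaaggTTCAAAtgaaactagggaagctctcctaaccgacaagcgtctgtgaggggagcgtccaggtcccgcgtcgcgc
Pttg1 (chr11:43425932-43426231, minus strand): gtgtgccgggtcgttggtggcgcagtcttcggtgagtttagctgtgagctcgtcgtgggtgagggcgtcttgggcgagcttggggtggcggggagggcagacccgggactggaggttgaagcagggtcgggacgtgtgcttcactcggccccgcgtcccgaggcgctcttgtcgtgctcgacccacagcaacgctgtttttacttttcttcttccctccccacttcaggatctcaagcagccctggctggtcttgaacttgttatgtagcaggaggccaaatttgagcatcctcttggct

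RefSeq promoters were found for 33 members, and Aurkb, Incenp, Kif20a and Tpx2 had none in the table. A CHR match lay in 25 of the 33 (75.8%), against 21.7% of 27025 genes. A CCAAT box lay in 25 (75.8%, against 41.1%), at least 2 of them in 17 (51.5%, against 13.3%), and both motifs in 22 (66.7%, against 8.61%). Counted in the first listed promoter of each gene, since 3 genes have a pair of overlapping ones, the matches sat close to the start: 26 of 33 CHR matches and 44 of 59 CCAAT boxes were within 100 bases before to 50 bases after it, with median positions of 2 and -68. The Top2a promoter held 4 CHR matches and 6 CCAAT boxes, and Hmmr 1 and 5. Ccnb1, Cenpe and Fzr1 had CCAAT boxes and no CHR match in these windows, while Birc5, Mad2l1, Nuf2, Nusap1 and Pttg1 had neither. The Pttg1 window (43425932 to 43426231) lies inside the gene as GENCODE places it (43420250 to 43426251, minus strand). That of Mad2l1 ends at 66535270, before the GENCODE gene start at 66535390. For both genes the lack of a match therefore does not describe the sequence around the GENCODE start. A second list of 24 spindle and cytokinesis genes gave a CHR share of 75.0%, and a list of 26 G1/S and replication genes 15.4%. The other lists lay between these. The share was 60% of 15 condensin and cohesin genes, 40% of 30 further kinetochore genes and 35.3% of 17 G2/M regulators. It was 26.7% of 15 subunits and inhibitors of the anaphase-promoting complex and 25% of 8 CDK inhibitors and pocket proteins. A match describes letters in a window and is not a measured binding site. CHR spellings other than those given above were not searched.

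**Figure D1:**
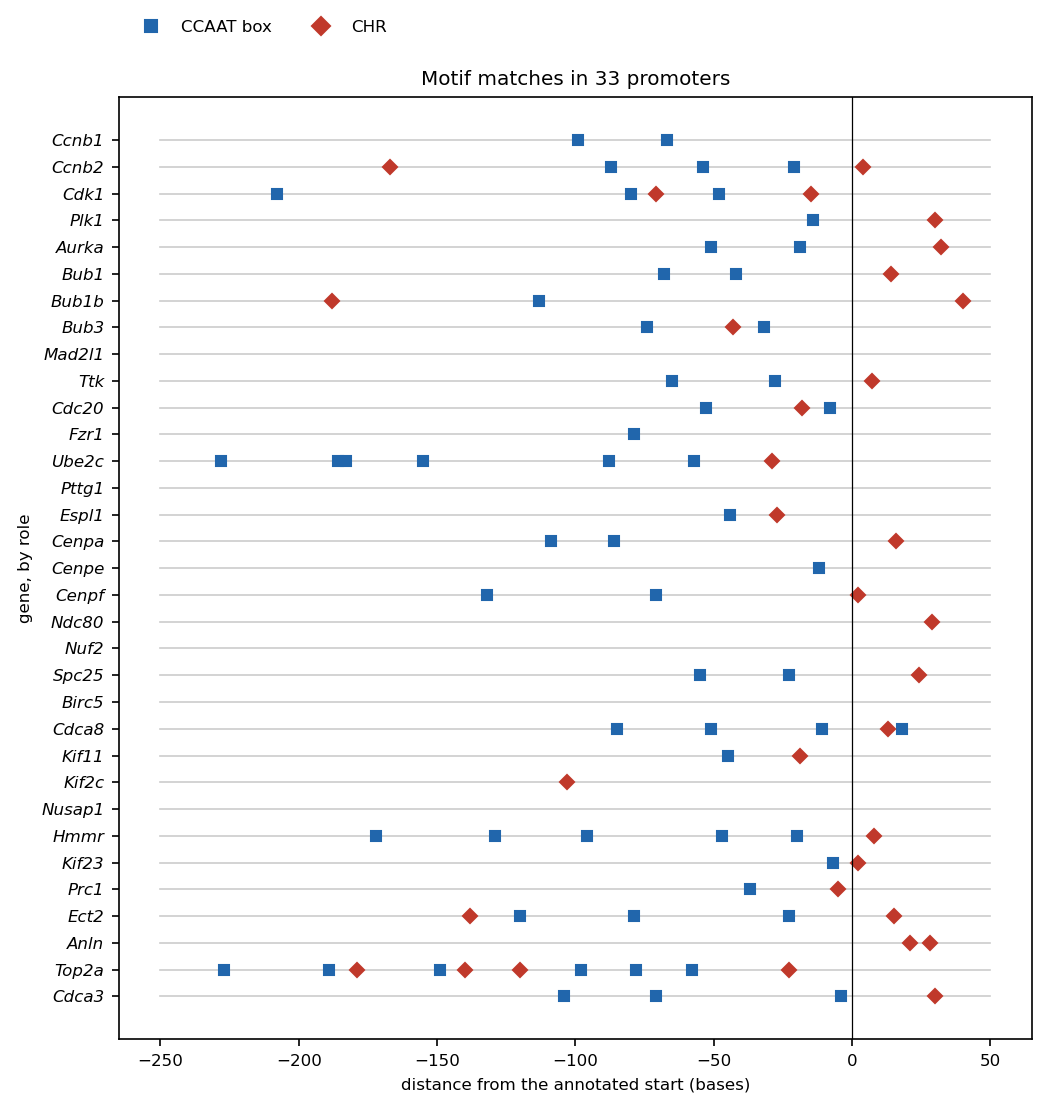
Positions of CCAAT boxes (squares) and CHR matches (diamonds) along the first listed promoter of each of 33 genes; the x axis is the distance from the annotated start in bases and the rows are genes by role. CHR matches gather near the start, and the lines of Birc5, Mad2l1, Nuf2, Nusap1 and Pttg1 are empty.

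Compared per kilobase of exon, the members differed widely in level. In R42A ESC the highest were Cdc20 (129 CPM per kilobase), Top2a (108), Ccnb1 (104), Ccnb2 (83.0) and Bub1b (82.1), and the lowest Ndc80 (10.1) and Nuf2 (8.75), which encode subunits of the kinetochore complex that binds microtubules. Among the highest, the order is not resolved: Cdc20 was 241 ± 66.3 CPM and Top2a 972 ± 186 (SD, n = 4), and they moved in opposite directions between the library series. Cdc20 was 191 and 176 CPM in A04 and A10 and 300 and 296 in A01 and A02. Top2a was 1098 and 1161 CPM in A04 and A10 and 852 and 778 in A01 and A02. In R42A neural cells Top2a (82.4) and Cdc20 (76.2) led again, followed by Ccnb1 (52.6). Much of the spread in ESC lay between the 2 library series. Fzr1 was 60.5, 57.0, 148 and 159.8 CPM in A04, A10, A01 and A02 and 48.9, 48.3, 111 and 112 in 09, 30, 45 and 47, so every clone of the second series stood above every clone of the first. Plk1, Cdc20 and Espl1 were also higher in the second series in both genotypes, while Cenpf and Cenpe were lower there.

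**Figure D2:**
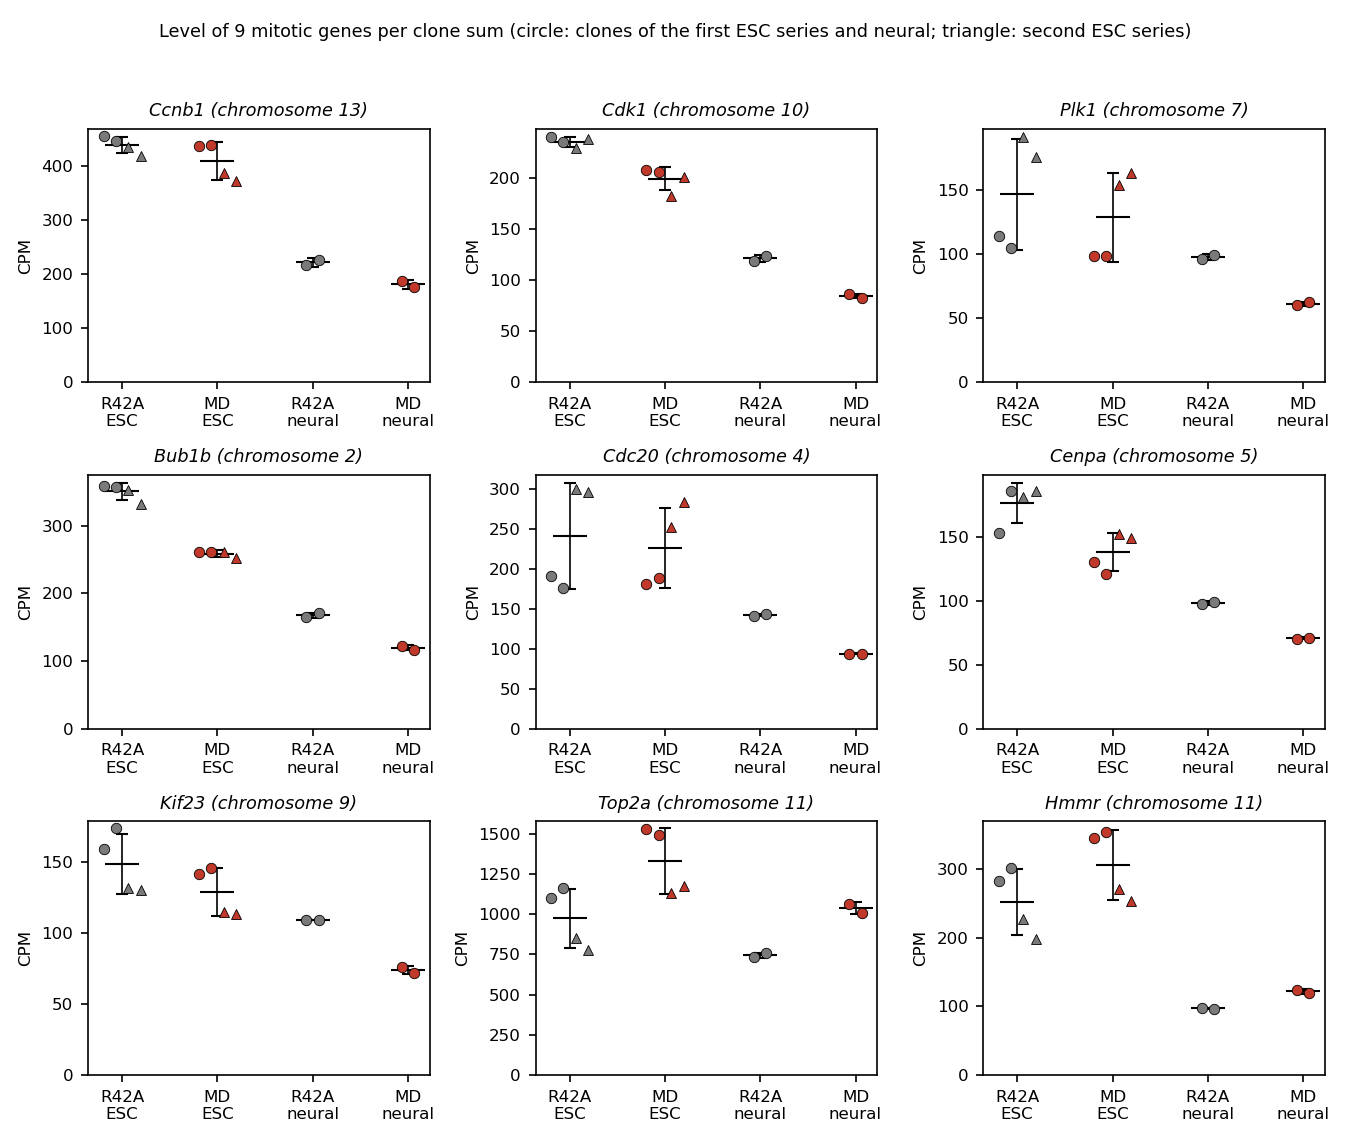
Level of 9 members in CPM (y axis, from 0) for each clone sum of the 4 groups; circles are clones of the first ESC series and the neural clones, triangles the second ESC series, and bars the mean and SD over clones. Bub1b separates MD (red) from R42A (grey) in both cell types, Top2a is higher in MD within each series, and all 9 are lower in neural cells than in first-series ESC of the same genotype.

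In ESC, MD clones carried less RNA of many of the members, by small amounts. With the library series as a term, 18 of 37 members (48.6%) fell in MD against R42A and 4 (10.8%) rose, at a Benjamini-Hochberg adjusted p under 0.05 in edgeR's quasi-likelihood test, while 15 were not called. Of all 21567 genes tested, 19.4% were called lower and 17.1% higher. The median log2 change of the members was -0.16, and that of all genes -0.03. Off chromosome 11, 17 of 32 members were called lower and 0 higher. The shares of all genes just given include chromosome 11, where most called genes were higher in MD. The 4 higher members, Aurkb, Birc5, Hmmr and Top2a, all lie on chromosome 11.

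Of the mitotic entry genes, Cdk1 fell by 15.6%. Its level was 240.0, 235, 229 and 238 CPM in R42A clones A04, A10, A01 and A02 and 208, 206, 183 and 201 in MD clones 09, 30, 45 and 47, so that the groups did not overlap (log2 change -0.24 ± 0.05 SE, adjusted p = 0.00624). Ccnb1 was 455, 446, 435 and 419 and 438, 439.9, 388 and 372 CPM, with overlapping groups, and was not called (log2 change -0.11 ± 0.05 SE, adjusted p = 0.144). Reads of the cyclin B1 piece in the tag could be counted under Ccnb1 in both genotypes, which was not tested. Ccnb2, the second B-type cyclin, fell (log2 change -0.23 ± 0.07 SE, adjusted p = 0.0246), as did Plk1, a kinase of centrosome maturation and mitotic exit (log2 change -0.18 ± 0.05 SE, adjusted p = 0.0246). Aurka, the kinase of the spindle poles, was 129.7, 130.0, 144 and 145 CPM in R42A and 125, 125, 123 and 129 in MD. Each MD clone lay below each R42A clone, by a gap that did not pass the test (log2 change -0.13, adjusted p = 0.0882).

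Bub1b, which encodes the checkpoint protein BUBR1, had the clearest change in ESC. It was 359, 358, 353 and 333 CPM in the R42A clones and 262, 261, 261 and 252 in the MD clones, and the 12 single libraries of each genotype ran from 315 through a median of 349.6 to 390.5 and from 238 through 258 to 276. No MD library reached the lowest R42A library. Bub1b fell by 26.4% (log2 change -0.44 ± 0.04 SE, adjusted p = 0.000147). Within the first series alone its log2 change was -0.41 (edgeR adjusted p = 0.0311) and within the second -0.41 (edgeR adjusted p = 0.00595). Of the other checkpoint genes, Ttk, which encodes the kinase MPS1, fell (log2 change -0.28 ± 0.05 SE, adjusted p = 0.00385), while Bub1, Bub3 and Mad2l1 had log2 changes of -0.06, -0.04 and -0.04 and were not called.

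Around the anaphase-promoting complex, 4 of 5 members fell in MD ESC. Fzr1, the activator used at mitotic exit, lay lower in MD within each series, at the clone values given above (log2 change -0.37 ± 0.06 SE, adjusted p = 0.00213). Espl1, which encodes separase, was 200.2, 223, 291 and 312 CPM in the R42A clones and 159.6, 168, 239.9 and 238 in the MD clones and also separated the genotypes within each series (log2 change -0.36 ± 0.05 SE, adjusted p = 0.00119). Pttg1, which encodes securin, the inhibitor of separase, was 72.2, 85.9, 60.9 and 65.7 and 58.2, 54.4, 41.1 and 59.4 CPM. It is the 1 member of chromosome 11 that fell (log2 change -0.42 ± 0.11 SE, adjusted p = 0.0181), and with each chromosome scaled separately its change was -0.86 (edgeR adjusted p = 0.000467). Ube2c, the ubiquitin-conjugating enzyme of the complex, fell by 11.8%, and Cdc20 was not called (log2 change -0.07).

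At the kinetochore, Spc25 and Cenpa fell most. Spc25, a subunit of the NDC80 complex, was 101, 90.5, 81.5 and 75.9 CPM in R42A and 72.3, 71.2, 58.3 and 65.2 in MD clones, without overlap (log2 change -0.39 ± 0.06 SE, adjusted p = 0.00102). Cenpa, the histone variant that marks centromeres, was 153, 186, 181 and 186 and 129.9, 121, 152 and 149 CPM, also without overlap (log2 change -0.37 ± 0.07 SE, adjusted p = 0.00365). Nuf2 fell by less (log2 change -0.22), and the motor Cenpe, Cenpf and Ndc80 were not called, with log2 changes of -0.12, -0.09 and 0.06. In the chromosomal passenger complex, which corrects wrong attachments, the scaffold Incenp fell (log2 change -0.17 ± 0.04 SE, adjusted p = 0.0135), Cdca8 had a log2 change of 0.01 and Birc5, the gene of survivin, rose (log2 change 0.24 ± 0.05 SE, adjusted p = 0.00504). Aurkb, the kinase of the same complex, rose as well (log2 change 0.20 ± 0.07 SE, adjusted p = 0.0406).

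Of the spindle genes, Tpx2, which activates Aurora A on microtubules, fell by 14.8% and Nusap1, a microtubule stabiliser, by 15.9%. Kif11, the motor that separates the spindle poles, and the depolymerase Kif2c were not called. Hmmr, a spindle-associated protein, was 282, 301, 227 and 197 CPM in the R42A clones and 345, 353, 271 and 254 in the MD clones and rose (log2 change 0.28 ± 0.06 SE, adjusted p = 0.00595). Among the cytokinesis genes, Prc1, the bundler of the central spindle, and Kif23, the motor of centralspindlin, fell (log2 changes -0.25 and -0.21), while Kif20a, Ect2 and Anln were within -0.04 to 0.06 of the control on the log2 scale and were not called. Cdca3, a trigger of mitotic entry, was 107, 147, 138 and 175 and 94.6, 91.2, 120.4 and 121 CPM and fell (log2 change -0.42 ± 0.11 SE, adjusted p = 0.0149). Top2a, the topoisomerase that untangles sister chromatids, was 1098, 1161, 852 and 778 CPM in R42A and 1526, 1488, 1128 and 1174 in MD clones, higher in MD within each series (log2 change 0.45 ± 0.05 SE, adjusted p = 0.000229).

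With each chromosome scaled separately, no member rose in ESC (16.2% of all genes did) and 18 fell (16.7% of all genes did). Aurkb then read -0.25 and Birc5 -0.21, both called lower (edgeR adjusted p = 0.00664 and 0.0183), Hmmr -0.17 and Top2a 0.00, both uncalled. The direction of Aurkb, Birc5 and Hmmr in ESC thus flipped with the scaling. Ccnb2 and Plk1 were no longer called. Within the first series alone 1 member fell, Bub1b (3.27% of all genes fell), and 1 rose, Top2a. Within the second series alone 6 fell, namely Cdk1, Bub1b, Fzr1, Espl1, Cenpa and Spc25 (10.7% of all genes fell), and 3 rose. Those 3 were Aurkb, Hmmr and Top2a, all of chromosome 11. The shares of all genes that rose within either series alone are not given here. By plain order, both MD clones lay below both R42A clones within each series for 21 of 37 members, against 22.1% of all genes, and above them for Birc5, Hmmr and Top2a, against 20.6%. Without the series term 1 member fell, Bub1b, and 0 rose.

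Beside these counts, 7 of 8 stem cell markers fell in MD ESC (3 with each chromosome scaled separately), with a summed level of 4532 to 5306 CPM against 5437 to 6608 in R42A, and 5 of 6 tested smooth muscle and fibroblast markers rose, with a summed level of 59.2 to 108 CPM against 6.97 to 26.0 in R42A. Col3a1 and Dcn were under 0.1 CPM in R42A ESC. The part of these cells in the changes of the mitotic genes was not tested.

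In neural cells most members were lower in MD than in R42A. Of the 37, 23 (62.2%) fell and 3 (8.11%) rose in edgeR's quasi-likelihood test with Benjamini-Hochberg adjustment, against 16.3% and 17.4% of 23844 genes tested. The median log2 change was -0.26, and that of all genes 0.00. Off chromosome 11, 23 of 32 members fell and 0 rose, while the shares of all genes just given include chromosome 11. The 3 that rose, Birc5, Hmmr and Top2a, lie on chromosome 11. In plain order, both MD clones lay below both R42A clones for 30 members, against 38.1% of all genes, and above them for 5, against 37.9%.

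The largest fall was in Plk1. Its level was 96.2 and 99.7 CPM in R42A clones A04 and A10 and 60.4 and 62.7 in MD clones 09 and 30, without overlap (log2 change -0.67 ± 0.05 SE, adjusted p = 0.000234). Cdc20, which activates the anaphase-promoting complex in metaphase, was 141 and 144 and 94.0 and 93.2 CPM (log2 change -0.61 ± 0.05 SE, adjusted p = 0.000285). Cdk1 was 119 and 124 and 86.3 and 83.0 CPM (log2 change -0.52 ± 0.05 SE, adjusted p = 0.000328). In each of these 3 genes the gap between genotypes was many times the spread of the 2 clones within one. Ccnb1 was 216 and 227 and 187 and 176 CPM and fell as well (log2 change -0.29 ± 0.05 SE, adjusted p = 0.00444), whereas Ccnb2, at 52.4 and 54.2 and 52.6 and 53.1 CPM, had overlapping groups and was not called (log2 change -0.02 ± 0.09 SE, adjusted p = 0.93). Aurka fell by 20.7%, and Aurkb was at 77.4 and 79.7 against 76.2 and 77.5 CPM, with overlap.

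In the spindle checkpoint 4 of 5 members fell. Bub1b was 165 and 171 CPM in R42A and 122 and 117 in MD neural cells, a fall of 28.9% (log2 change -0.49 ± 0.04 SE, adjusted p = 0.000372), close in size to the fall in ESC. Bub1, the kinase that brings the other checkpoint proteins to the kinetochore, fell by 23.0%, Mad2l1, the inhibitor of CDC20, by 18.1% and Ttk by 17.4%. Bub3 was not called. Around the anaphase-promoting complex, Ube2c fell by 27.6% and Espl1 by 20.3%. Fzr1 was not called (log2 change -0.11 ± 0.05 SE, adjusted p = 0.153), nor was Pttg1, which was 26.9 and 28.6 CPM in R42A and 32.9 and 30.5 in MD clones (log2 change 0.19 ± 0.10 SE, adjusted p = 0.182).

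At the kinetochore, Cenpa was 97.2 and 99.0 and 70.3 and 71.2 CPM (log2 change -0.48 ± 0.09 SE, adjusted p = 0.00824) and Spc25 64.6 and 68.3 and 50.1 and 46.4 CPM (log2 change -0.46 ± 0.07 SE, adjusted p = 0.00235), both without overlap. Cenpf and Nuf2 fell by 17.2% and 13.2%. Of the passenger complex, Incenp and Cdca8 fell (log2 changes -0.31 and -0.20) and Birc5 rose (0.24). Kif23 stood out among the cytokinesis genes at 109 and 109 against 75.9 and 71.8 CPM (log2 change -0.57 ± 0.06 SE, adjusted p = 0.000752). Ect2, the exchange factor that switches on RhoA at the division plane, Kif20a, the motor of the passenger complex, and Anln, the scaffold of the contractile ring, fell by 17.2%, 15.7% and 16.1%. Prc1 was not called. Tpx2 and Kif2c fell by 16.5% and 17.2%, and Top2a rose from 730.0 and 755 to 1065 and 1009 CPM (log2 change 0.48 ± 0.06 SE, adjusted p = 0.000977).

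With each chromosome scaled separately, 0 members rose in neural cells (16.4% of all genes did) and 26 fell (14.9% of all genes did). Top2a then read 0.02, Hmmr -0.13, Birc5 -0.21, Aurkb -0.49 and Pttg1 -0.26 on the log2 scale. Leaving out clone 09 or clone 30 leaves 1 MD neural clone, and fewer members and fewer genes in all were then called. Over all alternative runs the log2 change in neural cells stayed between -0.71 and -0.645 for Plk1. It stayed between -0.62 and -0.557 for Cdc20, -0.558 and -0.484 for Cdk1 and -0.53 and -0.458 for Bub1b. Cdk1, Plk1, Bub1b and Cdc20 were called lower in neural cells under every alternative run. Neural marker levels moved beside these changes: all 10 neuron markers rose in MD, with sums of 2205 to 2232 CPM against 799 to 824 in R42A. Progenitor markers summed to 1290.2 to 1305 in R42A and 1248 to 1264 in MD. Of 7 endoderm markers only Afp was called lower, at 0.13 CPM in R42A and 0.02 in MD. The endoderm sums, 252 to 288 in R42A and 128 to 137 in MD, rest on markers that were not called. Of 7 smooth muscle markers 4 rose and 2 fell, with sums of 211 to 222 in R42A and 111 to 114 in MD. The part of the cell mix in the falls of the mitotic genes was not tested.

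Between the cell types, 12 members fell in MD in both, against 5.95% of the 21470 genes tested in both: Cdk1, Plk1, Bub1b, Ttk, Ube2c, Espl1, Cenpa, Nuf2, Spc25, Incenp, Tpx2 and Kif23, or 12 of the 18 that fell in ESC and 12 of the 23 that fell in neural cells. The neural clones are lines that also gave ESC libraries. Another 11 fell in neural cells and were not called in ESC, among them Ccnb1, Aurka, Cdc20 and Ect2, and 6 fell in ESC and were not called in neural cells, among them Ccnb2, Fzr1 and Pttg1. Bub3, Cenpe, Ndc80 and Kif11 were called in neither.

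**Figure D3:**
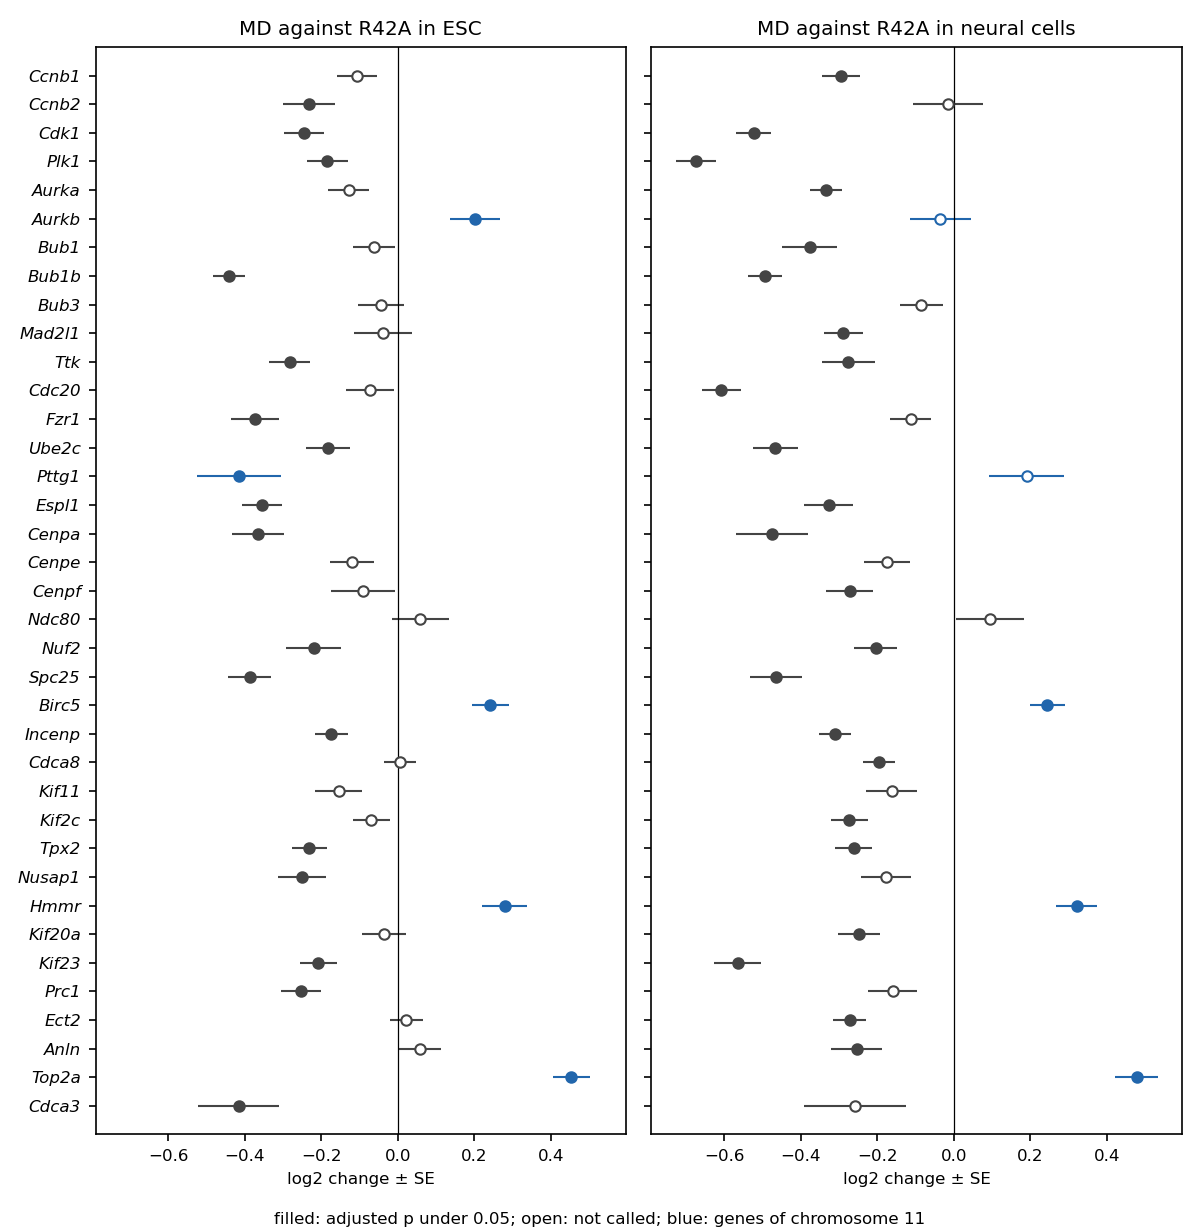
Log2 change of MD against R42A with its SE (x axis) for the 37 members (rows, by role) in ESC (left) and neural cells (right); filled points passed an adjusted p of 0.05 and blue points are genes of chromosome 11. The points right of 0 that passed are all blue, and Bub1b, Spc25 and Cenpa lie left of 0 on both sides.

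Whether the MD effect itself differed between the cell types was tested on the clones sequenced in both (A04, A10, 09 and 30). The log2 change of MD against R42A was more negative in neural cells than in ESC for 12 members and more positive for 1. The shares of all genes were 11.1% and 11.9% in edgeR's interaction test. Of the 12 with a more negative change in neural cells, Cdc20 and Plk1 differed most. In first-series ESC, Plk1 was 114 and 105 CPM in A04 and A10 and 99.0 and 98.7 in 09 and 30, whereas in neural cells MD clones lay well below R42A clones, as given above (log2 change -0.55 ± 0.07 SE, adjusted p = 0.00313). Cdc20 in the same ESC clones was 191 and 176 against 181 and 188 CPM (log2 change -0.64 ± 0.07 SE, adjusted p = 0.00163). The others were Cdk1 (-0.35), Kif23 (-0.38), Ube2c (-0.37), Mad2l1 (-0.33), Ect2 (-0.33), Aurka (-0.30), Kif20a (-0.30), Ccnb1 (-0.28), Kif2c (-0.24) and Cdca8 (-0.24), as differences of log2 changes. Pttg1 went the other way: it was lower in MD than in R42A in ESC, and was not called in neural cells (log2 change 0.66 ± 0.14 SE, adjusted p = 0.0155). With each chromosome scaled separately it was called lower in neural cells too (edgeR adjusted p = 0.0345), and the difference was 0.63 (edgeR adjusted p = 0.006). Bub1b, Cenpa and Spc25 were not called here, with differences of -0.06, -0.06 and -0.07.

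With the clone label as a block, since a label names the same line in both cell types, 6 members in place of 12 had a more negative MD change in neural cells. They were Cdk1, Plk1, Mad2l1, Cdc20, Kif23 and Ect2. Over all genes, 3853 in place of 5472 were called in either direction. Pttg1 kept its call (edgeR adjusted p = 0.0141), and Ccnb1 did not pass (adjusted p = 0.0779). Without clone 09, or without clone 30, 0 members were called in either direction, and 77 or 114 genes in all.

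Neural cells had less RNA of most members than ESC in both genotypes. In R42A, 29 of 37 members (78.4%) fell and 1 rose, against 40.4% and 37.9% of all genes, and in MD 31 (83.8%) fell and 1 rose, against 41% and 40.3%. The median log2 change was -0.66 in R42A and -0.90 in MD, and that of all genes -0.06 and -0.02. In 29 members the neural sum lay below the ESC sum in every one of the 4 clones, as in 39.9% of all genes. At least 2-fold falls were seen in 10 of 37 members in R42A, close to the 25.8% of all genes, and in 15 of 37 in MD, against 27.2%. The 2 stage comparisons use different clones, A04 and A10 or 09 and 30, and in ESC only these lines of the first series. The cell type and the library run cannot be told apart.

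**Figure D4:**
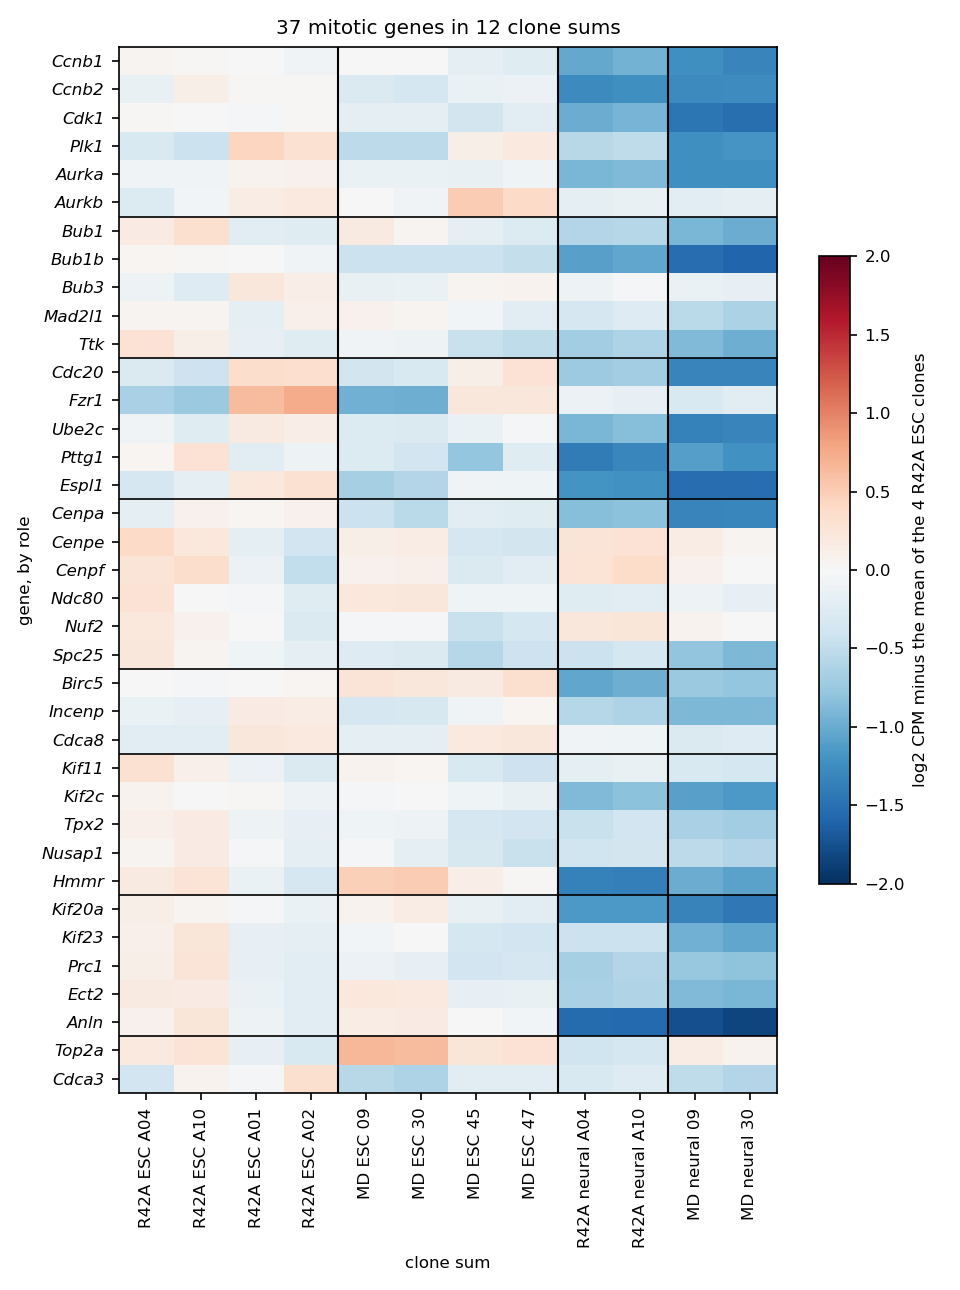
Level of the 37 members (rows, by role) in the 12 clone sums (columns) as log2 CPM minus the mean of the 4 R42A ESC clones; blue is lower and red higher, on a scale from -2 to 2. The neural columns are blue in most rows, deepest in Anln, while Cenpe, Cenpf, Nuf2 and Cdca8 stay pale.

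Anln fell most. In the lines compared it was 301 and 336 CPM in R42A ESC and 97.0 and 96.3 in R42A neural cells (log2 change -1.77 ± 0.07 SE, adjusted p = 5.10e-07), and 313 and 317 against 83.6 and 79.0 CPM in MD (log2 change -2.03 ± 0.07 SE, adjusted p = 2.60e-07). The second-series ESC lines, which are not in this fit, stood lower, at 264 and 241 CPM in R42A and 283 and 272 in MD. Hmmr fell to about the same degree in both genotypes (log2 changes -1.64 and -1.60, or -1.40 and -1.38 with each chromosome scaled separately). Of the mitotic entry genes, Ccnb1 fell by 52.5% in R42A and by 60.9% in MD, Ccnb2 by 59.1% and 50.6%, and Cdk1 by 50.7% and 61.3%. Plk1 fell by 13.8% in R42A and 41.1% in MD, and Cdc20 by 25.1% and 52.0%. Pttg1 fell by 66.2% and 46.7% (log2 changes -1.56 and -0.91, or -1.32 and -0.69 with each chromosome scaled separately). Kif20a, with log2 changes of -1.27 and -1.57, and Bub1b, with -1.15 and -1.21, fell strongly as well.

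In R42A 7 members were not called: Cenpe, Cenpf and Nuf2 of the kinetochore, Bub3 of the checkpoint, Aurkb and Cdca8 of the passenger complex, and Cdca3. The other kinetochore members, Cenpa, Ndc80 and Spc25, fell. Cenpf was 330.3, 355, 256 and 197 CPM in R42A ESC clones A04, A10, A01 and A02 and 334 and 359 in neural A04 and A10. Fzr1 was the 1 member that rose (log2 change 0.50 ± 0.05 SE, adjusted p = 9.30e-05 in R42A and log2 change 0.64 ± 0.05 SE, adjusted p = 2.24e-05 in MD). The ESC series differ beside that rise: the neural levels, 87.3 and 84.7 CPM in A04 and A10, lie above the ESC levels of the same lines and below the 148 and 159.8 CPM of A01 and A02. With each chromosome scaled separately, 3 members rose in R42A in place of 1: Fzr1, Cdca8 and Aurkb, whose log2 change went from -0.05 to 0.19.

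**Figure D5:**
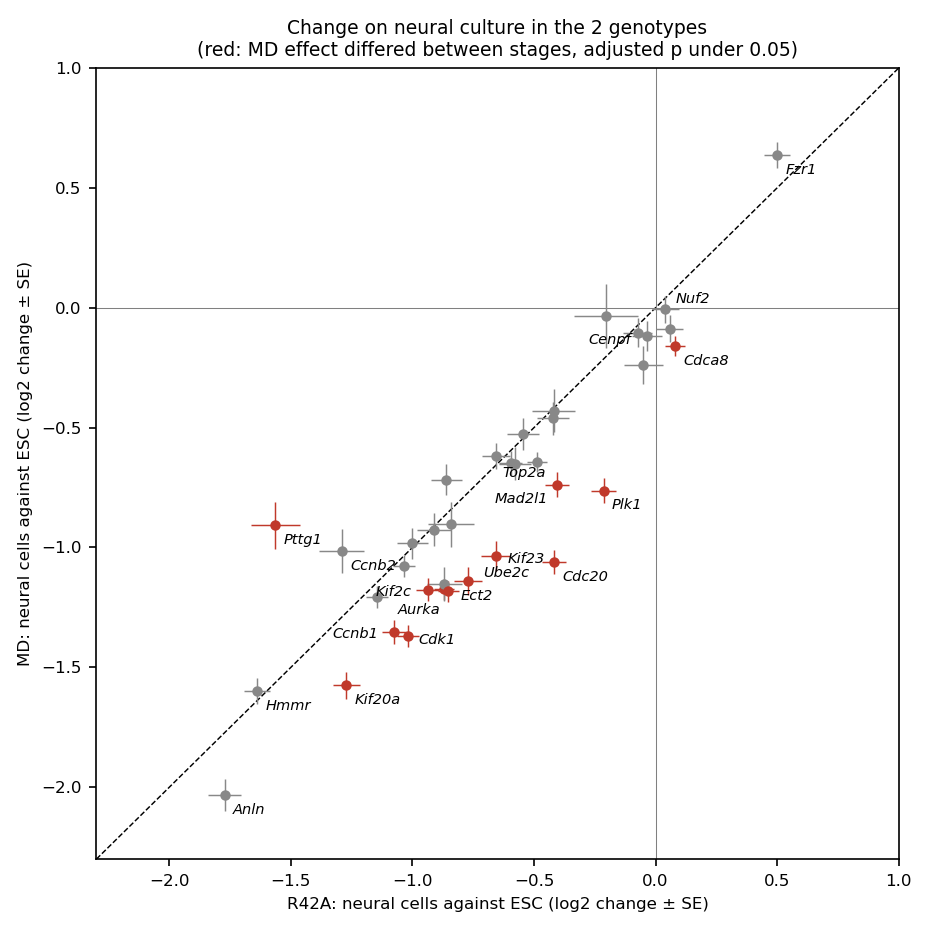
Log2 change of neural cells against ESC with its SE in R42A (x axis) and MD (y axis) for the 37 members; the dashed line marks equal change, and red points are the 13 members whose MD effect differed between cell types. Cdc20, Plk1 and 10 others lie below the line and Pttg1 above it, while Fzr1 is the point right of and above 0.

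Per library, the median member stood at -0.15, 0.01 and 0.11 on the log2 scale relative to the mean of R42A ESC in the 12 R42A ESC libraries, -0.19, -0.12 and 0.03 in the 12 MD ESC libraries, -0.63, -0.59 and -0.54 in the 4 R42A neural libraries and -0.96, -0.91 and -0.84 in the 4 MD neural libraries (lowest, median and highest). The 2 ESC groups overlapped, and the 2 neural groups did not.

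Other genes of the cell cycle were counted from lists of the same pathways, to be read against the shares of all genes, 19.4% lower and 17.1% higher in MD ESC and 16.3% and 17.4% in MD neural cells. Of 25 G2/M regulators outside the members, 12 fell and 3 rose in MD ESC and 11 fell and 1 rose in MD neural cells. Ccnf, Cdc25b, a phosphatase that activates CDK1, and Mybl2, a factor that binds late cell cycle promoters, fell most in ESC (log2 changes -0.42, -0.41 and -0.38), and Gtse1, Nek2, a centrosome kinase, and Cks2, a CDK-binding subunit, in neural cells (-0.71, -0.54 and -0.51). Mybl2 was also the gene of this list with the largest fall in neural cells against ESC (-2.67 in R42A). Of 25 other spindle and cytokinesis genes, 13 fell and 2 rose in ESC and 9 fell and 2 rose in neural cells. Of 21 condensin and cohesin genes, 10 fell and 0 rose in ESC and 4 fell and 1 rose in neural cells. Of 34 further kinetochore genes, 9 fell (26.5%) and 7 rose (20.6%) in ESC and 7 fell and 7 rose (20.6% each) in neural cells, near the shares of all genes, and of 16 subunits and inhibitors of the anaphase-promoting complex 2 fell and 3 rose, and 3 fell and 3 rose.

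The G1/S and replication list of 34 genes had 9 lower and 7 higher in ESC and 18 lower and 2 higher in neural cells. In neural cells the largest falls were in Ccnd3, a D-type cyclin (-0.99), Cdk6, its kinase (-0.95), and Ccne1, cyclin E1 (-0.67). Cdk6 was higher in MD in ESC (0.80), and its MD effect differed between the cell types by -1.78 (edgeR adjusted p = 0.000657). Of 10 CDK inhibitors and pocket proteins, which hold cells in G1, 6 fell and 0 rose in MD ESC, and 1 fell and 4 rose in MD neural cells, led by Cdkn2c (1.11). Cdkn1a, the inhibitor p21, fell there (-0.61). Against ESC, 8 of the 10 rose in the neural cells of each genotype, against 37.9% of all genes in R42A and 40.3% in MD.

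Set against the promoters shown above, members with a CHR match and those without were both called lower in MD: 12 of 25 against 4 of 8 in ESC, and 17 of 25 against 3 of 8 in neural cells. Among the genes printed, Cdk1, Plk1, Bub1b and Cdc20 carry both motifs, as does Top2a, whose direction differed from theirs. Ccnb1 has CCAAT boxes and no match to the CHR spellings searched. The 8 without a CHR match include Pttg1 and Mad2l1, whose windows do not cover the GENCODE start. The counts with and without a match are too small to compare, and no test was made. The counting of 10 members meets an overlapping gene, on the other strand for Bub3, Cdc20, Fzr1, Ube2c, Cdca8, Nusap1, Kif20a and Prc1, and whether counting used strand is not given in the sources used here. Ccnb1 and Ccnb2 have annotated pseudogenes that could share reads with them.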

How the data were processed

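The authors deposited 1 table a library of estimated gene counts (expected counts, of which 1.46% to 1.7% were not whole numbers). RSEM 1.3.0, STAR 2.7.1a, Trim Galore 0.60, DESeq2 and the build mm10 appear in the submitters' processing notes, without their roles, and the annotation release and strand setting are not given in the sources used here. Counts were rounded, 92 spike-in entries with a total of 0 were left out, and the libraries of a clone were summed. Genes passing filterByExpr (minimum count 10) were fitted with edgeR 4.0.16 (TMM, robust quasi-likelihood F-test) in R 4.3.3 and called at a Benjamini-Hochberg adjusted p under 0.05 over all genes. The ESC fit held 8 sums with library series as a term, and the other 4 comparisons came from 1 fit of 8 sums in 4 groups. The labels do not say whether libraries of a clone are separate cultures, so p-values measure the spread between these samples. The 37 genes and all lists were chosen with earlier results of these data known. Every member could be named, and of each other list the 3 called genes with the largest change. Positions come from GENCODE M21. The clone label pairs the cell types because it names the same line. Replicate numbers were not taken to pair libraries: same-numbered libraries of the genotypes correlated between -0.196 and 0.425. The fits were tried on simulated counts without a series effect, with larger changes than those of the members between MD and R42A. They therefore do not check changes as small as those. DESeq2 1.42.0, limma voom 3.58.1 and other alternatives are given below.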

Additional observations from a re-analysis of the deposited data

Results flagged for a closer look

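Within groups of 4 ESC clones, 3 of 74 member-by-group sets had 1 clone apart from the rest, where chance gives about 1 in 20. Bub1b in MD clone 47 was the lowest, by a gap of 0.902 of the group's range, Mad2l1 in R42A clone A01 was the lowest by 0.84, and Cenpa in R42A clone A04 was the lowest by 0.856.

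The effect of MD differed between neural cells and ESC by the interaction test of edgeR in 13 members, given as the difference of log2 changes with the adjusted p. Cdc20 differed by -0.643 (adjusted p = 0.00163) and Plk1 by -0.549 (adjusted p = 0.00313). Kif23 had -0.379 (0.0211), Ube2c -0.369 (0.0198), Cdk1 -0.349 (0.0093), Mad2l1 -0.333 (0.0167) and Ect2 -0.33 (0.00928). Aurka had -0.304 (0.0115), Kif20a -0.302 (0.0317), Ccnb1 -0.279 (0.0304), Kif2c -0.238 (0.0462) and Cdca8 -0.237 (0.0278). Pttg1 had 0.656 (0.0155). None of the 13 passed without clone 09 or without clone 30.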

How the results depend on the processing

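Changes between neural cells and ESC moved least: in R42A all 30 calls were kept under every alternative, and in MD 29 of 32. Of 1626 values of single members under an alternative, 1436 kept direction and call, 183 kept direction but lost the call and 7 reversed. In MD ESC, members higher numbered 0 with each chromosome scaled separately, 1 in the first library series alone and 0 without a series term, and 3 to 5 when 1 clone was left out. Members lower numbered 1, 6 and 1 in the first series, in the second series and without a series term, and 13 to 16 with 1 clone left out. Genes called in ESC numbered 1769, 4878 and 3084 under those 3 settings, against 7862. Reversals in ESC were Ccnb1 in the first series (0.006) and, with chromosomes scaled, Aurkb (-0.247), Birc5 (-0.21) and Hmmr (-0.172). In neural cells Birc5 (-0.209) and Hmmr (-0.131) reversed with chromosomes scaled, and Cdca8 between cell types in MD (0.056). Neural members higher numbered 0 with chromosomes scaled, 5 with neural sums alone and 0 to 4 with 1 clone left out, and members lower 4 to 28. Genes called numbered 13643 with neural sums alone and 1538 to 9967 with 1 clone left out, against 8030. Members higher in R42A neural cells against ESC numbered 3 with chromosomes scaled and 1 to 2 with 1 clone left out. For the difference of the MD effect, 2 members were higher with single libraries, both with the replicate block and with no replicate block, and 0 to 3 with 1 clone left out. Members lower numbered 6 with the clone label as a block and 0 to 14 with 1 clone left out, and genes called 77 to 8759, against 5472. Among single libraries, the replicate block took members lower from 18 to 19 in ESC, from 12 to 13 for the difference of the MD effect and from 31 to 30 between cell types in MD, and changed no other count of members. In the fit of 4 groups, leaving out a clone leaves 1 clone in a group, assumed to vary like the others, and in the ESC fit it leaves 3. The cause of these shifts was not tested. With 2 neural clones a genotype, clone and genotype cannot be separated further.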

Other observations

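Among the genes of the other cell cycle lists, several of the largest changes in MD ESC fell on chromosome 8, which holds none of the 37 members. This grouping was noticed after the values were seen. Cenpt, a kinetochore scaffold, had a log2 change of -0.76, Cdc16, a subunit of the anaphase-promoting complex, of -0.75, Mau2, of the cohesin loader, of -0.60, Ckap2, a spindle protein, of -0.64 and Rbl2, the pocket protein p130, of -1.23. With each chromosome scaled separately they read -0.34, -0.33, -0.18, -0.22 and -0.82. On chromosome 11, Mis12, Anapc11, Cdc27, Kpna2 and Cdc6 rose in MD ESC by 0.60, 0.56, 0.54, 0.50 and 0.59 and read 0.15, 0.11, 0.08, 0.05 and 0.14 after that scaling. The rise of the chromosome 11 genes was not called once the chromosome was scaled, and the falls on chromosome 8 stayed called at smaller sizes. Why whole chromosomes shifted was not tested.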
